A study of Arabidopsis thaliana with 64 samples.

Results

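The transcriptome of dark-grown *Arabidopsis thaliana* seedlings without induction was described from 32 RNA-seq libraries, which were all the mock-treated libraries among the 64 of the study. They came from 4 sets of transgenic lines in which CHA19, ENAP1, LBD16 or WRI3 was fused to the glucocorticoid receptor (GR) and driven by the 35S promoter, a strong promoter active in most plant cells. Each set had 4 insertion lines with 2 replicates, so that 16 lines were compared, and a replicate was the whole seedlings pooled from 1 plate. Seedlings grew for 5 days in darkness, were moved to mock plates and were collected 24 h later under a green headlamp. The dexamethasone (Dex) libraries were not used. All libraries carried a GR-TF transgene and no line without one was among them. The GR moiety holds the fusion outside the nucleus until Dex is given, and whether it did so fully in mock seedlings was not measured. The design text names the first construct 35S:CHA19 without GR, whereas the sample titles name it GRCHA19 and the methods list its lines as GR fusions. The insertion lines of a set shared 1 construct and the labels give no sowing or harvest batch, so that a construct and a batch of plates cannot be told apart.

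A seedling that germinates in the dark follows the etiolated program, in which the hypocotyl elongates, the cotyledons stay closed and the plastids become etioplasts that hold protochlorophyllide and its oxidoreductases. Growth is fed by the oil and protein that the embryo stored, through fatty acid oxidation, the glyoxylate cycle and protein breakdown. When sugar runs low, dark-inducible genes for the recycling of amino acids and cell wall sugars are switched on.

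Levels are given as CPM, the count of a gene scaled to the same total in every library. Total counts ranged from 2570143 to 7571782 with a median of 5323670. Of 32833 genes, 27613 had a count in at least 1 library and 15245 were at or above 1 CPM in every library. The mean over libraries was at least 1 CPM for 18681 genes, at least 10 CPM for 12279 and at least 1000 CPM for 88. Protein-coding genes held 97.8% of counts, chloroplast genome IDs 1.3% and mitochondrial IDs 0.193%. The libraries were made from RNA captured by its poly(A) tail and were not strand-specific, so that reads of overlapping genes cannot be told apart.

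A pair of libraries stood apart from the rest, and most tests and counts are therefore given with and without them. The median Spearman correlation with the other libraries was 0.480 in GR-LBD16 line 3 replicate 1 and 0.648 in GR-ENAP1 line 1 replicate 1, against 0.820 to 0.969 in the other 30. Their sister plates were close to the rest. In GR-LBD16 line 3, the 290 ribosomal protein genes with a mean of at least 10 CPM summed to 88210 CPM in replicate 1 and 25711 CPM in replicate 2. In GR-ENAP1 line 1 the same sums were 76872 and 21626 CPM. Light harvesting genes went the other way, at 197 and 25344 CPM in GR-LBD16 line 3 and at 2002 and 23447 CPM in GR-ENAP1 line 1. Genes of late embryogenesis abundant (LEA) proteins, which protect drying seeds, reached 9708 CPM in GR-LBD16 line 3 replicate 1, above all other libraries. Whether the age, the germination or the handling of these plates differed was not tested. Leaving them out moved the median SD over lines of all loci from 0.26 to 0.21 on the log2 scale.

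The most abundant loci were TIP2, AT5G40450, CAB1, GRP3S and DIN10. The first 10 loci held 4.11% of all counts, the first 20 held 6.30%, the first 100 held 16.8% and the first 1000 held 46.3%. TIP2 (AT3G26520, chromosome 3, 9722443 to 9723904, minus strand), a water channel of the vacuolar membrane, led with a mean of 6334 CPM. Its lowest level was 119 CPM, its median 6842 CPM and its highest 9044 CPM, in GR-CHA19 line 5 replicate 2. The lowest library was GR-LBD16 line 3 replicate 1, and over the other 30 the lowest was 3149 CPM. AT5G40450 (chromosome 5, 16184650 to 16195888, minus strand), annotated as an A-kinase anchor-like protein, followed with a lowest, median and highest level of 153, 6329 and 7727 CPM. It overlaps another gene in the annotation.

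CAB1 (AT1G29930, chromosome 1, 10477885 to 10479114, plus strand), a chlorophyll a/b binding protein of the photosystem II antenna, came next although the seedlings had grown in darkness. It ran from 48.3 CPM through a median of 4658 CPM to 9606 CPM. Its near-identical copies CAB2 and CAB3 can take some of its reads, so that the split between the 3 genes is uncertain. Over the 30 libraries CAB1 had a median of 7607 CPM in GR-LBD16 and 3450 CPM in GR-WRI3. These sets did not overlap, with 5256 to 9606 CPM against 2694 to 5187 CPM. GR-ENAP1, at 4036 to 8035 CPM, overlapped both. The sums of the 17 light harvesting genes overlapped, at 12493 to 25344 CPM in GR-LBD16 and 10538 to 16557 CPM in GR-WRI3. How many other loci separate these sets was not counted. GRP3S, which encodes a glycine-rich protein, ran from 714 through 5005 to 9359 CPM, and its 3 highest libraries all belonged to GR-ENAP1.

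Several of the next loci are known for their induction by darkness and sugar starvation. DIN10, a raffinose synthase family gene, ran from 711 through 4408 to 5499 CPM, and ASN1 (also DIN6), which makes asparagine for nitrogen transport, ran from 46.7 through 3117 to 4329 CPM. BXL1, a beta-xylosidase that acts on cell wall sugars, had 378, 3915 and 5106 CPM, and CAT3, a catalase, had 255, 3874 and 4938 CPM. For ASN1 and BXL1, and also for DIN10, CAT3 and the dehydrin ERD14 (130, 2637 and 3727 CPM), the lowest of the 30 libraries was GR-LBD16 line 12 replicate 2 and the lowest of all was GR-LBD16 line 3 replicate 1. UBQ10, a polyubiquitin gene, was the steadiest of the first 10, with 1881, 2642 and 2997 CPM.

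ICL, the isocitrate lyase of the glyoxylate cycle that converts stored oil to sugar, was highest where these were lowest. It ran from 735 CPM in GR-ENAP1 line 4 replicate 2 through a median of 1541 CPM to 12935 CPM in GR-LBD16 line 3 replicate 1. Over the 30 libraries its medians were 929 CPM in GR-CHA19, 1120 CPM in GR-WRI3, 1713 CPM in GR-ENAP1 and 3114 CPM in GR-LBD16. The 7 GR-LBD16 libraries, at 2244 to 7111 CPM, all lay above the 16 of GR-CHA19 and GR-WRI3, at 835 to 1836 CPM. GR-ENAP1 reached into the range of GR-LBD16, with a mean of 2566 CPM in its line 2. The share of all loci with such a separation was not counted, so that it is not shown to be a trait of ICL. ICL ranked 11 over all libraries and 29 without the pair. The other 19 of the first 20 kept their place among the first 20, and ranks 20 and 21 were AT2G33830 at 2007 CPM and PIP1B, a plasma membrane water channel, at 1954 CPM.

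Because CPM grows with transcript length, levels were compared between genes per kilobase (kb) of exon. On this scale the order was GRP3S with 5409 CPM per kb, TIP2 with 4910, CAB1 with 4086, the translationally controlled tumor protein gene TCTP with 2187 and ERD14 with 2125 CPM per kb. Of the first 20 by CPM, 10 were also among the first 20 per kb.

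**Figure D1:**
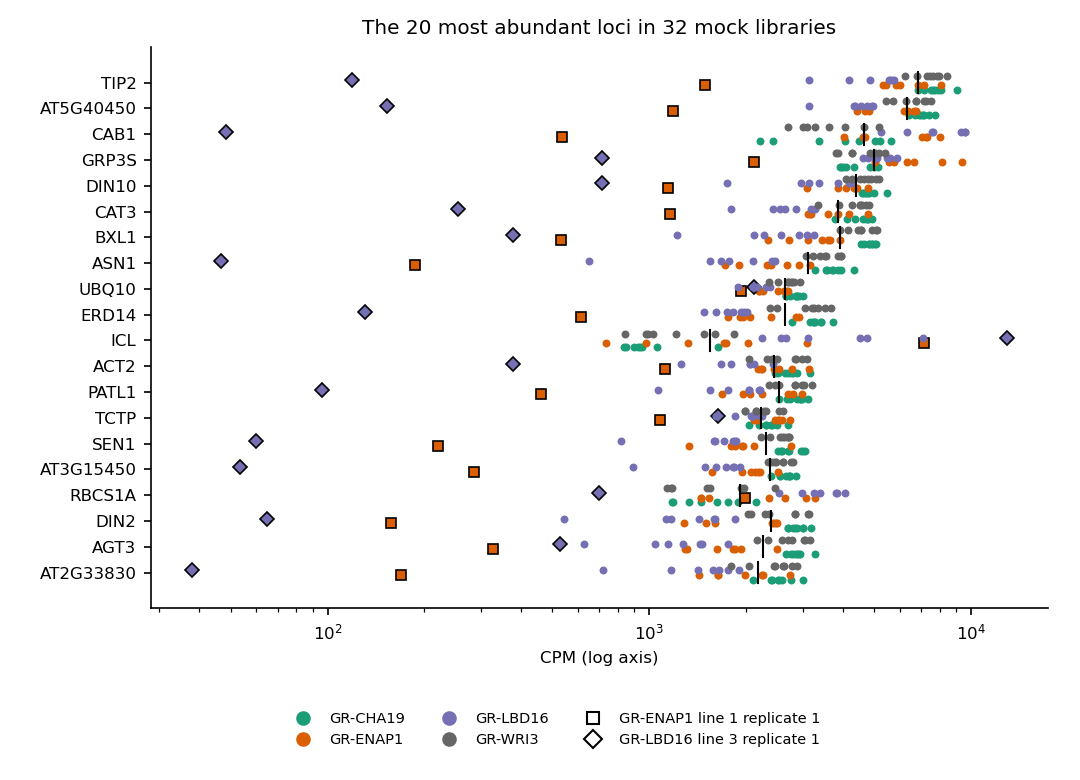
CPM (log axis) of the 20 most abundant loci in each of the 32 mock libraries, 1 point per library, with the median as a black bar and the libraries that stood apart as a square and a diamond. For 18 of the loci the diamond or the square is the lowest point, and for ICL the diamond is the highest at 12935 CPM.

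Labels of darkness were checked against marker genes. PHYA, the phytochrome that builds up in the dark, ran from 846 through 1089 to 1795 CPM. PORA and PORB, the protochlorophyllide oxidoreductases of etioplasts, ran from 31.3 through 176 to 1421 CPM and from 85.7 through 277 to 1336 CPM. Genes that strong light or blue light induces were low, with medians of 1.1 CPM for ELIP1 and 0.549 CPM for CHS, the first enzyme of flavonoid synthesis. Light-induced genes of photosynthesis were present all the same, with medians of 4658 CPM for CAB1, 1912 CPM for RBCS1A of the Rubisco small subunit and 732 CPM for LHCB3. Markers of the flower were at most 0.635 CPM for AG, AP1 and AP3, whereas PI ran from 1.12 to 24.0 CPM.

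Whether loci differed among the 16 lines and among the 4 sets was tested in edgeR across all loci. Of 19232 loci 13.9% differed among lines at an adjusted p under 0.05, and 45.3% of 19360 did so without the pair. Among sets 38.4% of 19303 loci differed, with the sums of a line as the samples, and 44.7% of 19105 without the pair. The fits of lines measure differences among all 16 lines against the spread of 2 plates. They hold no term for sets, so that a difference between sets also counts as one among lines. In the split of the variance of log2 CPM, the median share over 18681 genes was 22% for sets, 0% for lines within a set and 69.5% for replicates. Without both lines that held the pair these shares were 30.2%, 10.2% and 50.8%.

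Among the dark markers, PORA and PORB had the largest SDs over lines. Over the 30 libraries PORA had medians of 51.8 CPM in GR-CHA19, 84.8 CPM in GR-WRI3, 183 CPM in GR-ENAP1 and 786 CPM in GR-LBD16, and the GR-LBD16 libraries (483 to 1421 CPM) lay above all those of GR-CHA19 (32.7 to 101 CPM) and GR-WRI3 (31.3 to 459 CPM). GR-ENAP1 reached into the range of GR-LBD16, with a mean of 705 CPM for PORA in its line 2. For PORA, sets differed in edgeR with an adjusted p of 0.0058 with and without the pair. PORB had medians of 126, 164, 296 and 880.0 CPM in the same order (edgeR adjusted p = 0.0059, and 0.0030 without the pair). PHYA did not pass among sets (edgeR adjusted p = 0.40). Of the 9 dark markers 4 differed among lines and 4 among sets, and 7 and 6 without the pair. Over all loci the shares were 13.9% and 38.4%, and 45.3% and 44.7% without the pair.

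The dark-induced starvation genes were lowest in GR-LBD16. Over all libraries the 7 genes summed to a median of 13908 CPM in GR-CHA19, 13497 CPM in GR-WRI3, 10267 CPM in GR-ENAP1 and 8059 CPM in GR-LBD16. The lowest sum, 889 CPM, was that of GR-LBD16 line 3 replicate 1, and the lowest of the 30 libraries was 3871 CPM. Of the 7, 6 differed among sets with and without the pair. Among lines 0 of 7 passed in edgeR with all libraries (1 at an unadjusted p under 0.05, and 1 in DESeq2) and 7 of 7 without the pair. All loci had shares of 38.4% among sets and 13.9% among lines, and of 44.7% and 45.3% without the pair. ASN1 had medians over the 30 libraries of 3713 CPM in GR-CHA19, 3535 CPM in GR-WRI3, 2396 CPM in GR-ENAP1 and 1765 CPM in GR-LBD16 (edgeR adjusted p among sets = 0.0044, and 0.00048 without the pair). SEN1 (also DIN1) and BCAT-2, which degrades branched-chain amino acids, differed among sets likewise (edgeR adjusted p = 0.0087 and 0.0079). In bulk seedlings fewer cells of a type and less RNA per cell cannot be told apart.

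Ribosomal protein genes were highest in GR-LBD16. The 290 ribosomal protein genes summed over the 30 libraries to medians of 17877 CPM in GR-CHA19, 18411 CPM in GR-WRI3, 21993 CPM in GR-ENAP1 and 32872 CPM in GR-LBD16. GR-LBD16, at 24054 to 46764 CPM, did not overlap GR-CHA19 (16497 to 19799 CPM) or GR-WRI3 (16489 to 21509 CPM). It did overlap GR-ENAP1 (19852 to 32553 CPM). Of the 290, 223 differed among sets and 127 among lines, and 243 and 238 without the pair. The shares of all loci were 38.4% and 13.9%, and 44.7% and 45.3% without the pair. The 20 aquaporin genes summed over the 30 libraries to medians of 21513 CPM in GR-CHA19, 20989 CPM in GR-WRI3, 15905 CPM in GR-ENAP1 and 15630 CPM in GR-LBD16. Of these, 9 differed among sets and 0 among lines in edgeR (0 at an unadjusted p under 0.05, and 0 in DESeq2), and 12 and 15 without the pair. These groups were taken from product descriptions after values were known.

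**Figure D2:**
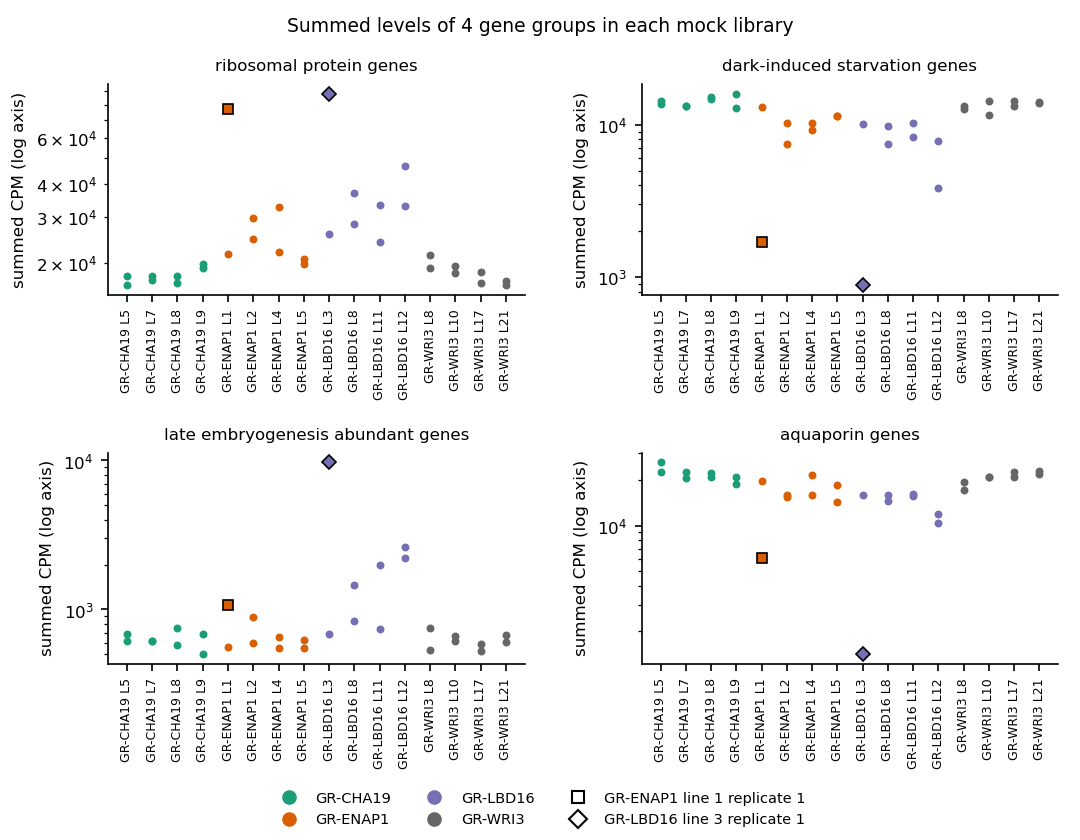
Summed CPM (log axis) of the ribosomal protein, dark-induced starvation, LEA and aquaporin genes by line, 1 point per library, colored by set, with the libraries that stood apart as a square and a diamond. The diamond, GR-LBD16 line 3 replicate 1, is the highest for ribosomal protein (88210 CPM) and LEA genes (9708 CPM) and the lowest for the others.

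The most variable loci were ranked by the SD over the 16 line means of log2 CPM among loci with a mean of at least 10 CPM, a measure that gets no test because it chose them. WRI3 (AT1G16060, chromosome 1, 5508311 to 5511736, plus strand), the locus of a transgene, led with an SD of 2.80. It had 33.9 to 206 CPM in the 8 GR-WRI3 libraries and at most 2.36 CPM in the other 24. The loci of the other transgenes were highest in their own sets, with up to 215 CPM for CHA19, 537 CPM for ENAP1 and 421 CPM for LBD16. LBD16 ranged within its own set from 56.4 CPM in line 3 to 421 CPM in line 11.

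Apart from the transgene, the list held seed proteins, extensins, loci of unknown function and others, such as a cysteine proteinase and a mechanosensitive channel. ECP63, an LEA protein of the embryo, ran from 0 through 1.31 to 325 CPM with an SD of 2.45. Over the 30 libraries its medians were 0.0735 CPM in GR-CHA19, 0.961 CPM in GR-WRI3, 1.69 CPM in GR-ENAP1 and 35.1 CPM in GR-LBD16, and its highest level was 83.6 CPM. Its lowest GR-LBD16 library, at 9.13 CPM, lay above every GR-CHA19 and GR-WRI3 library. The replicates of ECP63 differed by a median of 1.74 on the log2 scale, so that its level in a line is uncertain. CP1, a cysteine proteinase, ran from 1.62 through 25.8 to 995 CPM, and over the 30 libraries it had medians of 3.0, 16.3, 43.8 and 148 CPM in the same order of sets.

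HRGP1, AT3G28550 and AT3G54580 are extensins, hydroxyproline-rich proteins of the cell wall with repeats, and reads may be shared between them. HRGP1 ran from 0 through 6.83 to 348 CPM, AT3G28550 from 0 through 11.4 to 627 CPM and AT3G54580 from 0.136 through 24.7 to 661 CPM. All had their highest level in GR-ENAP1 line 1 replicate 1, and over the 30 libraries their highest levels were 86.6, 121 and 171 CPM. CRA1, a 12S seed storage globulin, ran from 0.220 through 3.82 to 395 CPM. It was high in GR-LBD16 line 12 (156 and 121 CPM) and GR-LBD16 line 8 (107 and 91.1 CPM) but split in GR-CHA19 line 8 (121 and 0.797 CPM), so that the spread between sister plates could be as large as that between lines. MSL9, a mechanosensitive channel, ran from 0 through 3.79 to 309 CPM, and AT1G68250, of unknown function, from 0.172 through 2.17 to 145 CPM.

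Apart from the transgene, ECS1 was the only locus of the first 10 with its highest set median outside GR-LBD16 over the 30 libraries. It ran from 0 through 3.76 to 54.3 CPM with an SD of 2.37. Its medians over the 30 libraries were 22.6 CPM in GR-WRI3, 18.4 CPM in GR-CHA19, 1.48 CPM in GR-ENAP1 and 0.502 CPM in GR-LBD16. The GR-CHA19 and GR-WRI3 libraries, from 3.11 CPM upward, lay above every GR-LBD16 library, whose highest was 1.71 CPM, and overlapped those of GR-ENAP1, whose highest was 5.75 CPM.

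**Figure D3:**
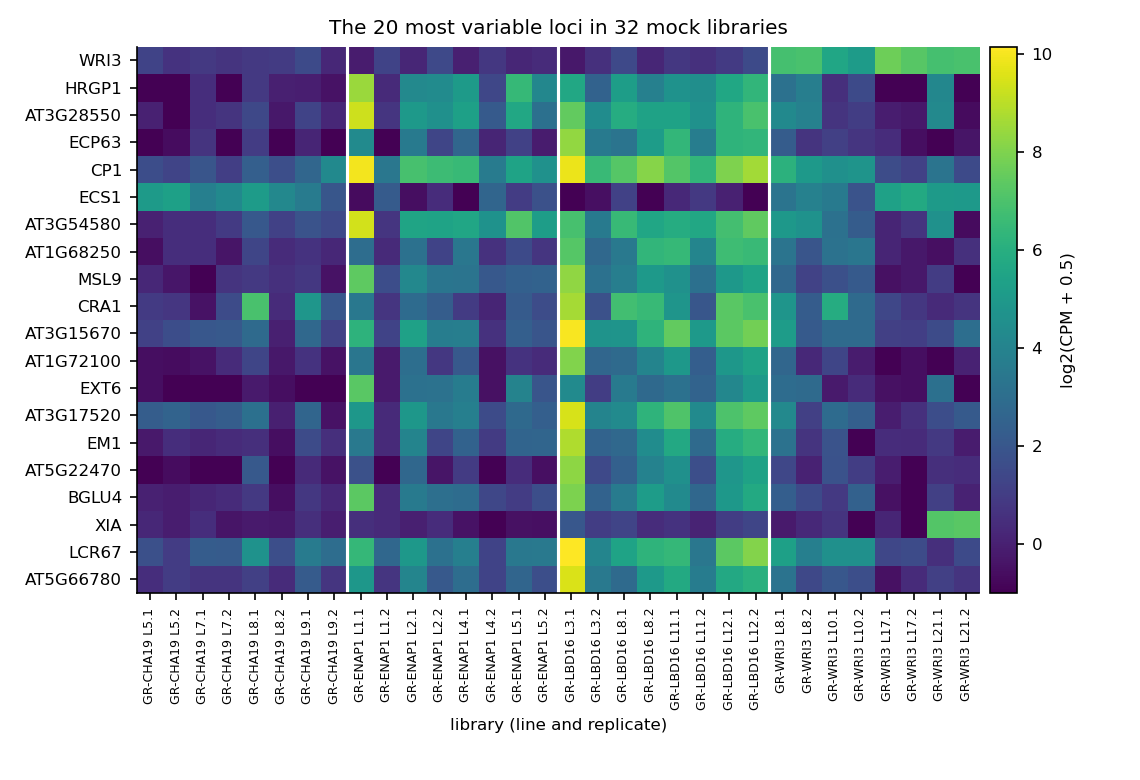
log2(CPM + 0.5) of the 20 most variable loci in the 32 mock libraries, with loci in order of their SD over lines, libraries grouped by set and white lines between the sets. Most loci are brightest in GR-LBD16, and some, such as the extensins HRGP1, AT3G28550 and AT3G54580, in GR-ENAP1 line 1 replicate 1. ECS1 is low in GR-LBD16, WRI3 is bright in the GR-WRI3 set and XIA in 1 of the lines of that set.

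The line with the highest mean of log2 CPM belonged to GR-LBD16 for 17 of the first 20 loci and for 73 of the first 100, or for 79 of the 100 ranked without the pair. It was GR-LBD16 line 12 for 52 of the 100, and for 72 without the pair. The floor of 10 CPM was on the mean over libraries. Loci near 0 CPM in most libraries thus entered the ranking through those where they were high, as did ECP63 (mean 21.5 CPM, median 1.31 CPM). These counts therefore depend in part on the floor, and how far was not tested. Loci with an LEA product made 13 of the first 100, with and without the pair. They made 29 of the 12279 loci with a mean of at least 10 CPM (0.236%). LEA loci such as AT3G17520 (mean 44.6 CPM, median 6.11 CPM) passed the floor mainly through a few high libraries, which also gives a large SD. The comparison therefore cannot tell a trait of LEA genes from an effect of the floor. Ranks 20 and 21 were AT5G66780 with an SD of 1.91 and AT5G01870 with 1.89. The replicates gave a check that did not use the same plates. The 100 loci ranked on replicate 1 had a median SD of 1.60 in replicate 2, against 0.26 over all loci, and those ranked on replicate 2 had a median of 1.61 in replicate 1, against 0.37.

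The 250 bases before the annotated start were read for each gene from RefSeq (TAIR10.1), and the motifs TATAAA and CACGTG were searched on both strands. CACGTG, the palindromic core of the G-box, was in 26 of the 100 most variable loci (26%), in 20 of the 100 ranked without the pair (20%), in 9 of the 100 most stable (9%) and in 8 of 97 of the most abundant (8.25%). Of all 12207 loci with a mean of at least 10 CPM and a window it was in 7.84%, and of all 32546 genes in 5.90%. TATAAA was in 48%, 51% and 38.1% of the variable, stable and abundant loci and in 46.0% of loci with a mean of at least 10 CPM. On the strand of the gene and 50 to 20 bases before the start, it was in 18% of the variable loci (14% of those ranked without the pair), 8% of the stable and 6.19% of the abundant loci, and in 7.44% of loci with a mean of at least 10 CPM. Of the 20 most variable loci, 5 held CACGTG, among them MSL9, AT1G72100, AT3G17520 and AT5G22470, and the windows of MSL9 and AT1G72100 are shown beside those of the most abundant and the most stable locus to let the motif be seen where the count comes from. Each runs 5′ to 3′ on the strand of the gene, with CACGTG and TATAAA, or its reverse complement TTTATA, in capitals.
MSL9 (chr5:6585105-6585354, plus strand): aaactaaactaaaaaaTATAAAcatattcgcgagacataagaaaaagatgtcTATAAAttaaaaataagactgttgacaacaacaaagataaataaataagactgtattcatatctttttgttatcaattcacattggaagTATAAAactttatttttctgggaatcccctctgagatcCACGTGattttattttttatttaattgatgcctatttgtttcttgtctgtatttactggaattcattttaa
AT1G72100 (chr1:27126920-27127169, plus strand): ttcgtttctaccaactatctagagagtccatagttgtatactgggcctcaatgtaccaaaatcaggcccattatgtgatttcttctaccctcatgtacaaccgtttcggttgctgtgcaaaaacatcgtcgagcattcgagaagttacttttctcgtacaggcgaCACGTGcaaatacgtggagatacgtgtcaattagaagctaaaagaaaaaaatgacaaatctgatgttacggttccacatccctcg
TIP2 (chr3:9723905-9724154, minus strand): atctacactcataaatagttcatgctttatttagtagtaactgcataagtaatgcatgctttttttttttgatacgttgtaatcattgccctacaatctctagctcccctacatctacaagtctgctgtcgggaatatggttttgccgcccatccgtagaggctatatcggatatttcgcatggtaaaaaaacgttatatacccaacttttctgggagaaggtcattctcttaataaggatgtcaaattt
MPK16 (chr5:6348268-6348517, minus strand): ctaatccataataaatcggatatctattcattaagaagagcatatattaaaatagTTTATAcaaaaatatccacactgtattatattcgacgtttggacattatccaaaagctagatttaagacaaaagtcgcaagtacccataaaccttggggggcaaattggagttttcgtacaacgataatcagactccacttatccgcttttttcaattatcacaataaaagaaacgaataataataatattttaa
CACGTG lay 71 bases before the start in MSL9 and 85 in AT1G72100, and TIP2 and MPK16 held none in this window.

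The first principal component of the 30 libraries held 61.4% of the variance, the second 4.89%. Scores had a median of 37.6 in GR-LBD16 (15.4 to 73.0), 0.385 in GR-ENAP1 (-9.09 to 34.9), -21.0 in GR-WRI3 (-32.3 to 4.62) and -24.6 in GR-CHA19 (-32.1 to -15.7). CP1, AT3G28550 and ECP63 had the largest positive loadings, and ECS1, MC9, a metacaspase, and WRI3 the largest negative ones. Removing the component took the median SD over lines of 12088 loci from 0.21 to 0.13. With the 4 transgene loci set aside, it left XIA, CRA1 and CRU3, another 12S globulin, as the most variable loci, with SDs of 1.91, 1.62 and 1.52. FSD1, an iron superoxide dismutase, ranked 7 with an SD of 1.19, and its levels over the 30 libraries ran from 5.33 CPM in GR-LBD16 line 11 replicate 1 to 83.9 CPM in GR-CHA19 line 5 replicate 2. This was chosen after the first ranking was seen.

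Some loci followed single lines. XIA (AT1G04600, chromosome 1, 1261762 to 1272588, plus strand), a myosin, had 143 and 155 CPM in GR-WRI3 line 21 and 0 to 3.53 CPM in the other 30 libraries. NPX1 (AT5G63320, chromosome 5, 25373955 to 25379297, minus strand), a nuclear protein, had 630 and 621 CPM in GR-LBD16 line 11 and 65.1 to 107 CPM elsewhere, 7.86-fold over the median of 79.6 CPM. They were the only loci with both plates of a line at 4 times the highest other library or more and a line mean of at least 10 CPM, a rule made after values were seen. The line means of the neighboring genes lay within the range of the other libraries. The nearest to XIA had 9.84 CPM in GR-WRI3 line 21 against a median of 13.9 CPM elsewhere on one side, and 1.86 against 1.73 CPM on the other. NDPK2, next to NPX1, had 54.7 CPM in GR-LBD16 line 11 against a median of 36.2 CPM and a highest level of 201 CPM elsewhere. NPX1 overlaps another gene in the annotation, so that its reads cannot be told apart from those of that gene. QQS (AT3G30720), a gene found in *Arabidopsis thaliana* only and known for its part in starch content, ran from 0.927 and 1.17 CPM in GR-WRI3 line 10 to 66.4 and 76.6 CPM in GR-LBD16 line 12. The replicates of QQS differed by a median of 0.22 on the log2 scale.

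**Figure D4:**
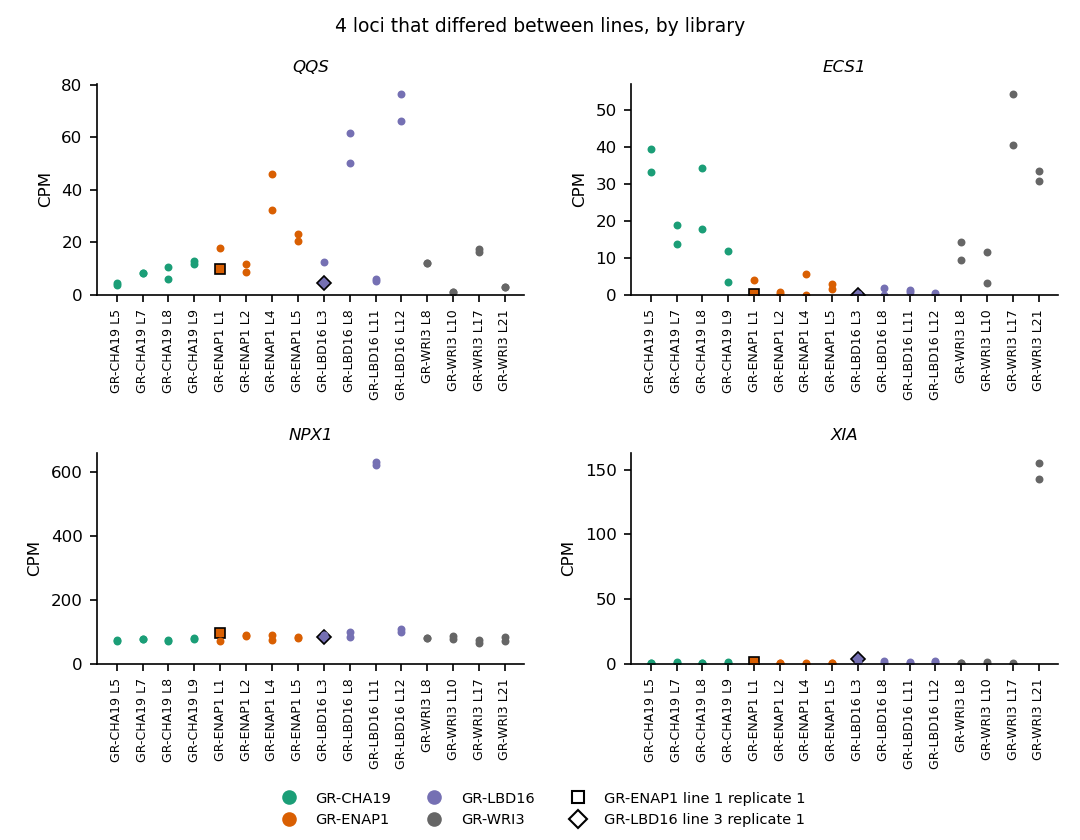
CPM of QQS, ECS1, NPX1 and XIA in each mock library by line, 1 point per library, colored by set, with the libraries that stood apart as a square and a diamond. XIA and NPX1 stand out in 1 line each, with 143 and 155 CPM and with 630 and 621 CPM, while QQS takes many levels.

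Genes stable across the 16 lines were ranked by the smallest SD among 4539 loci with a mean of at least 50 CPM. MPK16 (AT5G19010, chromosome 5, 6344770 to 6348267, minus strand), a mitogen-activated protein kinase, was first with an SD of 0.046 on the log2 scale. It ran from 69.6 through 84.5 to 102 CPM with a mean of 83.4 CPM, and counting noise alone would give an SD of 0.049. AT4G37830, a cytochrome c oxidase subunit, ran from 93.8 through 108 to 140 CPM (SD 0.053). PERK8, a receptor-like kinase, ran from 44.6 through 54.3 to 75.3 CPM (SD 0.054). SEC5A, a subunit of the exocyst that tethers secretory vesicles, ran from 105 through 123 to 148 CPM (SD 0.054).

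The others of the first 10 were AT2G41960, of unknown function, RCN1, a scaffold subunit of protein phosphatase 2A, AT1G65220, an ARM repeat protein, UBP12, a ubiquitin protease, AT5G10980, a histone, and CKB2, a subunit of casein kinase II, with SDs from 0.055 to 0.060. The first 10 thus held kinases, secretion and ubiquitin genes but no member of the fixed list of reference genes. Of these 10, 7 were highest in GR-ENAP1 line 1 replicate 1 or GR-LBD16 line 3 replicate 1. Ranks 20 and 21 were AT2G45810 with an SD of 0.0658 and AT4G12590 with 0.0668. SDs this close to counting noise do not resolve the order, and 222 of the 4539 loci had an SD under 0.1. Without the pair 5 of the 20 kept their place, among them MPK16 and RCN1, and NUP1, a nuclear pore protein, came first with an SD of 0.038. The 100 loci ranked on replicate 1 had a median SD of 0.11 in replicate 2, against 0.24 over all loci, and 22 were also among the 100 of replicate 2.

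Reference genes used for normalization in *Arabidopsis* spread over a range of SDs. SAND had 0.085, AP2M 0.098, TIP41L 0.11, PP2AA3 0.13 and ACT7 0.14, all under the median of all loci, 0.26. UBQ10 had 0.26, TUB2 0.30, ACT8 0.41, GAPC1 0.52, ACT2 0.52 and EF1A4 0.56. Without the pair UBQ10 had 0.25 and ACT2 0.34, against a median of 0.21 for all loci. Of the 23 tested, 2 differed among lines (GAPC1 and EF1A4) and 8 among sets, and 9 and 7 without the pair. Over all loci tested, 13.9% differed among lines and 38.4% among sets, and 45.3% and 44.7% without the pair. GAPC1, a glycolytic enzyme, had medians of 234 CPM in GR-CHA19, 242 CPM in GR-WRI3, 448 CPM in GR-ENAP1 and 532 CPM in GR-LBD16 (edgeR adjusted p among sets = 0.0010). SAND did not pass among lines (edgeR adjusted p = 0.87) or sets (0.69).

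**Figure D5:**
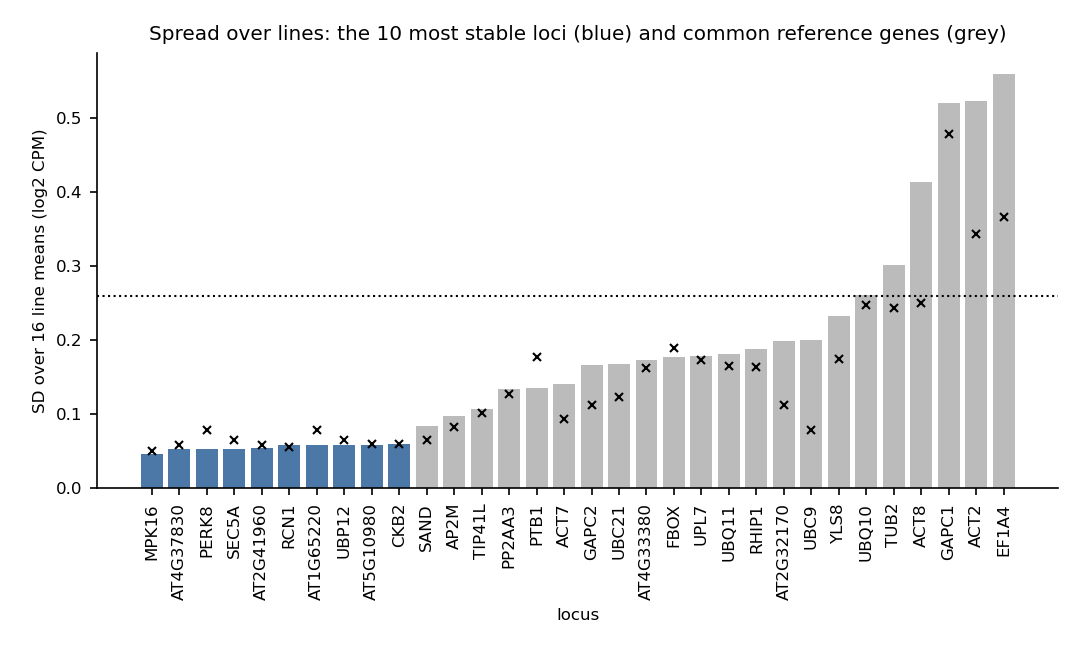
SD over the 16 line means of log2 CPM for the 10 most stable loci and the reference genes, with bars from all 32 libraries, crosses for the values without the libraries that stood apart and a dotted line at the median of loci with a mean of at least 10 CPM (0.26). The bars of the most stable loci stop at 0.060, and those of ACT2 and EF1A4 lie past the line.

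The other gene lists are given by their counts. Of all loci tested, 13.9% differed among lines and 38.4% among sets, and 45.3% and 44.7% without the pair. Counts near these shares are no trait of a list. Seed storage genes differed in 7 of 10 tested among lines and 3 among sets, and in 8 of 10 and 1 of 9 without the pair, and their sum ran from 7.08 to 728 CPM (401 CPM without the pair). The vector carries OLE1 under its own promoter, so that reads of the transgene and of OLEO1 cannot be told apart. Light-induced genes differed in 4 of 15 among lines and 4 among sets, and 14 and 7 without the pair. Root hair genes differed in 4 of 5 among lines and 5 of 5 among sets, and in 4 of 5 and 4 of 4 without the pair. PRP3, a cell wall protein of root hairs, ran from 0 through 2.33 to 151 CPM. Wall and growth genes differed in 3 of 14 and 5 of 14, and 10 and 8 without the pair. Circadian genes differed in 1 of 10 and 7 of 10, and 6 and 5 without the pair.

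Lists of stress and nutrition genes follow, beside shares over all loci of 13.9% among lines and 38.4% among sets. Without the pair these shares were 45.3% and 44.7%. In edgeR 0 of 7 heat shock genes differed among lines and 0 among sets, with and without the pair. At an unadjusted p under 0.05 these counts were 2 and 0, without the pair 1 and 0, and DESeq2 called 1 and 0. Hypoxia genes differed in 0 of 8 among lines in edgeR (3 at an unadjusted p under 0.05, and 3 in DESeq2) and 3 of 8 among sets, and in 2 and 4 without the pair. Iron deficiency genes differed in 0 of 5 among lines in edgeR (2 at an unadjusted p under 0.05, and 3 in DESeq2) and 1 of 4 among sets, and in 2 and 1 without the pair. IRT1, the iron transporter of roots, and BHLH100 had no count in any library. Phosphate and nitrogen genes differed in 3 of 5 and 3 of 6, and in 5 of 6 and 3 of 6 without the pair. Jasmonate genes differed in 2 of 4 among lines and 0 of 4 among sets in edgeR (1 at an unadjusted p under 0.05, and 1 in DESeq2), and in 3 and 2 without the pair. Salicylate genes differed in 1 of 2 and 2 of 2, with and without the pair. Touch genes differed in 0 of 3 among lines and 0 among sets in edgeR (1 and 0 at an unadjusted p under 0.05, and 1 and 0 in DESeq2), and in 2 and 1 without the pair. Abscisic acid and cold genes differed in 1 of 5 and 3 of 5, and in 3 and 2 without the pair. Flower genes differed in 1 of 2 among lines and 0 of 2 among sets in edgeR (1 at an unadjusted p under 0.05, and 1 in DESeq2), and in 1 and 0 without the pair (1 among sets at an unadjusted p under 0.05). PI was the gene that differed among lines with all libraries (edgeR adjusted p = 0.031).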

How the data were processed

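Per the labels and the study's methods, the authors trimmed reads with Trim Galore 0.6.0, checked them with FastQC 0.11.7, mapped them to TAIR10 with STAR 2.7.0f and deposited raw counts per gene for each of 2 sequencing runs, with no normalization. The annotation version is not given in the sources used here. Runs of a library were summed, and their chi-square per gene lay between 1.11 and 1.17. CPM used the total of a library. Log2 CPM used TMM factors and a prior count of 2. RefSeq TAIR10.1 gave names, products and lengths for 32548 of 32833 IDs, and the 285 others are of organelle genomes and are not named.

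Lines and sets were tested in edgeR 4.0.16 (R 4.3.3) with filterByExpr, robust quasi-likelihood F-tests and Benjamini-Hochberg adjustment at 0.05. Replicates were separate plates, so that p-values among lines measure the spread between plates only. Sets were tested on the summed counts of each line, so that their p-values measure the spread between lines of a set. Rankings were by mean CPM, and by SD over line means with floors of 10 CPM (variable) and 50 CPM (stable). Named loci were the first 20 of each ranking, with the first 10 in full, the transgene loci and the members of 18 gene lists. Members and lists were chosen with earlier results of these data known. The product groups, the first principal component, the loci of single lines and the fits without the pair of libraries were chosen after seeing the data. Alternatives were DESeq2 1.42.0, no filter, RLE factors, scaling by library size, a replicate block, other floors and spread measures, and each library left out. The scripts were tested on simulated data. Other steps used pandas 2.3.3 and numpy 2.4.6 under Python 3.11.15. One promoter window is not reported here.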

Additional observations from a re-analysis of the deposited data

Results flagged for a closer look

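Within each set of 8 mock libraries, a library whose gap to its nearest neighbor took most of the range of the set is listed here. Of 136 such groups 28 held one, and 24 of these were the pair of libraries that stood apart. Chance gives about 1 in 20 groups where values are independent and normally spread. These groups share the same libraries, so that this rate is no measure of their number. No explanation was tested.

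GR-ENAP1 line 1 replicate 1 had a median Spearman correlation of 0.6482 with the other libraries and GR-LBD16 line 3 replicate 1 of 0.4798. In these 2 libraries, in this order, TIP2 was at 1495 and 119 CPM, AT5G40450 at 1186 and 152.7 CPM, CAB1 at 535 and 48.34 CPM and GRP3S at 2124 and 714.1 CPM. CAT3 was at 1162 and 254.5 CPM, BXL1 at 532.2 and 378.3 CPM, ASN1 at 186.5 and 46.73 CPM and ERD14 at 614.5 and 130.4 CPM, all below the other 7 libraries of the set. MSL9 was above them, at 166.9 and 309 CPM. DIN10 was low in GR-ENAP1 line 1 replicate 1 at 1146 CPM. In the same library MPK16 and RCN1, from the stable loci, were high at 101.8 and 169.2 CPM. The chloroplast share of counts was low in GR-LBD16 line 3 replicate 1, at 0.7818%.

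In the other libraries, the chloroplast share was high in GR-WRI3 line 8 replicate 1, at 1.515% against at most 1.19% in the set. PERK8 was high in GR-CHA19 line 5 replicate 1 at 54.71 CPM, against 48.5 to 50.8 CPM. CKB2 was high in GR-LBD16 line 12 replicate 2 at 88.05 CPM, and the total count of that library, 2964000, was the lowest of its set.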

How the results depend on the processing

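The most abundant loci depended little on the processing: all 20 remained with any 1 library left out, and 10 remained per kb of exon. Of the 20 most variable loci, 13 remained without the pair and with higher floors, 12 by the median absolute deviation and on replicate 2 alone, 10 without the GR-LBD16 lines, 7 by the coefficient of variation, and 14 to 20 with any 1 library left out. Of the 20 most stable, 13 remained by the SD over 32 libraries, 11 with lower floors, 10 with higher floors and by the median absolute deviation, 8 on replicate 1 alone, 6 without both affected lines and without the GR-LBD16 lines, 5 without the pair, 4 on replicate 2 alone, 2 with library size alone and by the coefficient of variation, and 10 to 19 with 1 library left out (10 without GR-LBD16 line 3 replicate 1). The line share of variance was 10.2% without both affected lines.

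Of the loci, 2669 differed among lines. The count was 8762 without the pair, 9077 without both affected lines, 6029 in DESeq2, 5409 with a difference of at least 1 (log2) and without the pair, and 1616 without the GR-LBD16 lines. With 1 library left out it ran from 1481 (GR-LBD16 line 12 replicate 2) to 11490 (GR-LBD16 line 3 replicate 2). It was under the main count by over 1.5 times without either replicate of GR-CHA19 lines 5 and 8 or of GR-WRI3 lines 17 and 21, or without GR-CHA19 line 7 replicate 1 (1576 to 1758), and above it by as much without GR-LBD16 line 3 replicate 1 (4493), GR-ENAP1 line 1 replicate 1 (4955) or its replicate 2 (7804). Without replicate 2 of an affected line the lone plate is that which stood apart, assumed to vary like the others. Among sets 7408 loci differed, 3330 without the GR-LBD16 lines, 2396 also without GR-ENAP1 line 1 replicate 1, and 4790 to 9060 with 1 library left out (4790 without GR-LBD16 line 3 replicate 2). The causes were not tested.

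Replicate numbers did not pair the samples: over 120 pairs of lines the correlation of the replicate differences ran from -0.683 to 0.775, with a median of 0.0095, and 39 were over 0.1. With a replicate block 2415 loci differed among lines. Sets were tested on line sums, where no block can be fitted. Depth limits the stable order, whose SDs are close to counting noise, and levels near 0 CPM in shallow libraries.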
